A study of Mus musculus with 7 samples.

Results

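The 10 genes described here encode receptor tyrosine kinases outside the ErbB, Eph and insulin families. They were chosen by symbol (Fgfr1, Fgfr2, Fgfr3, Pdgfra, Pdgfrb, Met, Mst1r, Axl, Tyro3 and Ddr1) from the 23955 gene names of the deposited count table, spike-ins left out, and all 10 were present and passed the filter on low counts. RNA came from 7 mouse esophageal epithelial cell lines of mixed strain background grown on plastic in KSFM, a keratinocyte medium. The 3 mutant lines carry the p53 missense allele p53R172H and the treatment label 4NQO. The 2 null lines (numbered 1 and 3) are p53 -/- and carry the same 4NQO label, and the 2 wild-type (WT) lines carry neither a p53 alteration nor that label. 4NQO is the usual short name of an esophageal carcinogen. Genotype and the label therefore cannot be told apart in either comparison with WT. No label says whether each line had its own animal of origin, and the p-values speak only to how far these particular lines spread.

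Receptor tyrosine kinases span the cell membrane, pair up when an outside ligand binds and then phosphorylate each other and adaptor proteins that switch on the MAPK, PI3K and STAT pathways. In stratified epithelium, FGFR2 and MET receive growth signals made by the underlying connective tissue, whereas FGFR1 and both PDGF receptors are best known from fibroblasts and other mesenchymal cells. AXL and TYRO3 bind Gas6 and protein S, DDR1 is a collagen receptor, and MST1R (RON) is a relative of MET that binds macrophage-stimulating protein.

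Total counts per library were 41325469 to 47000225 in mutant, 25469853 and 33598210 in null, and 12751118 and 31283848 in WT lines. Levels are CPM, the counts per 1000000 of the TMM-scaled library, and differences are log2 fold changes from one edgeR quasi-likelihood fit of 13768 genes, with p-values adjusted over all of them. Trp53 was at 171.6 to 253.9 CPM in mutant, 4.71 and 8.73 CPM in null and 192.7 and 211.6 CPM in WT libraries, so the targeted gene followed the labels. Xist, which coats the inactive X chromosome, was at most 0.964 CPM in the mutant and null libraries and 675.4 and 1653 CPM in WT, which also separates these groups. All 9 epithelial markers examined had counts in every library, and their summed level was 9527 to 14585 CPM in mutant, 8800 and 13077 CPM in null and 33787 and 47444 CPM in WT lines. Krt5 and Krt14 gave the largest part of this sum. Trp63 averaged 345, 236 and 346 CPM in mutant, null and WT lines, and Cdh1 403, 752 and 811 CPM. Over the 9 markers, log2 fold changes ran from -2.53 to -0.004 in mutant against WT and from -2.53 to -0.11 in null against WT. The 5 immune markers summed to 48.8 to 91.98 CPM in mutant, 23.2 and 32.2 CPM in null and 74.1 and 78.9 CPM in WT lines. Of these, Cd68 was at 48.1, 70.4 and 91.8 CPM in mutant, 32.1 and 22.5 CPM in null and 74.1 and 78.9 CPM in WT lines (null against WT log2 fold change -1.49, edgeR adjusted p = 0.113, called by DESeq2), and the pan-leukocyte marker Ptprc was at most 0.0609 CPM. Their part in the receptor levels was not tested. The 5 endothelial markers summed to at most 1.03 CPM in any library. Among them Pecam1 was at most 0.692 CPM, Vwf at most 0.548 CPM and Cdh5 at most 0.0203 CPM, and Emcn had 0 counts.

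Of the 13768 genes tested, 7.42% were called (adjusted p under 0.05) in mutant against WT, 3.3% higher and 4.13% lower. For null against WT, 0.138% were called, 0.0726% higher and 0.0654% lower, and in mutant against null 0%. None of the 10 receptors was called by edgeR in any of the 3 comparisons. At an unadjusted p under 0.05 there were 3 receptors (mutant against WT), 2 (null against WT) and 0 (mutant against null), beside 30.5%, 20.2% and 14% of all genes tested. DESeq2, run as an alternative, called 5, 2 and 0 receptors, beside 3246, 1634 and 635 of 18567 genes. Counts at an unadjusted p and by DESeq2 in the gene lists below are to be read beside these backgrounds. Without WT 1 or WT 2, edgeR called no gene at all in the comparisons with WT, and without mutant 2 or mutant 3 it called 37 and 6 in mutant against WT. The group libraries did not overlap for 3 receptors that were higher and 4 that were lower in mutant than in WT lines, for 3 higher and 3 lower in null than in WT lines, and for 1 higher and 2 lower in mutant than in null lines. The same held for 26.9% higher and 25.7% lower of all genes in mutant against WT, 29.1% and 27.1% for null beside WT, and 16% and 15.1% for mutant beside null. The members' median log2 fold changes were -0.23, 0.05 and -0.30 in these 3 comparisons, beside 0.08, 0.06 and 0.02 over all genes.

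Promoter sequences are shown for 3 receptors whose transcript levels in mutant and null lines lay apart from WT, Pdgfra above and Met and Mst1r below. Each is the 250 bases before the gene's start from RefSeq (GRCm38.p6, plus strand, read 5′ to 3′), whereas the counts were made on mm9. Of the 10 receptors, 8 have an entry there. For Mst1r, which has 2 entries, the upstream one was taken. Capitals mark matches to the GC box bound by Sp1-family factors (GGGCGG, or CCGCCC on the other strand), the AP-1 motif (TGACTCA or TGAGTCA) and the E-box bound by Zeb and Snail factors (CACCTG or CAGGTG). No 2 of these matches overlap. Pdgfra is at chr5:75152001-75152250, Met at chr6:17463707-17463956 and Mst1r at chr9:107906639-107906888.
Pdgfra: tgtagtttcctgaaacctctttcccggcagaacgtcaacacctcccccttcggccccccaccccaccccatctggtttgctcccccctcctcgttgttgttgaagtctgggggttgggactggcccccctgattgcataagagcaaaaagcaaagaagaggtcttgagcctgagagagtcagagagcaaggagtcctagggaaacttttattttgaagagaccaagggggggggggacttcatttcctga
Met: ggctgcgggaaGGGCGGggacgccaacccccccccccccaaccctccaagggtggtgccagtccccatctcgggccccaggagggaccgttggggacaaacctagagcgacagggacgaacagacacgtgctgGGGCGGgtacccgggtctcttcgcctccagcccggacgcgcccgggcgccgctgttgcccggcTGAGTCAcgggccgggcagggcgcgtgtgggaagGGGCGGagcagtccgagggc
Mst1r: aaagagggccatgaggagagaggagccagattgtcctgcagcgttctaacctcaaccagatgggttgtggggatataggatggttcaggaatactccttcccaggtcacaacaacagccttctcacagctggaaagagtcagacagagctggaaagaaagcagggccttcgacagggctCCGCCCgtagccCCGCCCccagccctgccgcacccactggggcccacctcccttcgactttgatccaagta
The Met window holds 3 GC boxes, 1 AP-1 motif and 24 CpG dinucleotides, with 74.0% G and C. The Mst1r window holds 2 GC boxes and 7 CpG, and the Pdgfra window holds no match and 4 CpG. None of the 3 windows has the E-box letters. Over all 32851 promoter windows of this length, 32.7% hold a GC box, 4.46% an AP-1 motif and 17.2% an E-box, and the median CpG count is 6.

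Fgfr1, the FGF receptor of mesenchymal cells, was nearly absent from WT lines and plentiful in 4 of the 5 lines with the 4NQO label. It was at 108, 40.01 and 101 CPM in mutant 1, 2 and 3, at 2.34 and 126 CPM in null 1 and null 3, and at 0.272 and 0.731 CPM in WT 1 and WT 2. The WT values rest on 8 and 9 counts, and the null 1 value on 77. All mutant and null libraries lay above both WT libraries, and null 1 lay far closer to WT than to null 3. The log2 fold change was 7.53 in mutant against WT (SE 1.92, 95% interval 2.96 to 12.1, edgeR adjusted p = 0.0607). It was 7.16 in null against WT (SE 1.92, adjusted p = 0.14), 2.40 without null 3, and 8.14 without null 1, where edgeR called it (adjusted p = 0.0342). DESeq2 called Fgfr1 in both comparisons with WT (adjusted p = 1.88e-05 in mutant and 0.000572 in null). In mutant against WT, edgeR called it with no filter and with only the groups compared (adjusted p = 0.0403 and 0.00951). With DESeq2, that makes 3 of 13 alternatives in mutant against WT. Mutant and null lines overlapped, with a log2 fold change of 0.37 (95% interval -2.63 to 3.37). This difference was -0.60 without null 1 and 5.15 without null 3 (adjusted p = 0.07).

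Fgfr2, whose epithelial splice form receives Fgf7 and Fgf10 from the stroma, was present throughout. Its levels were 57.6, 104 and 56.4 CPM in mutant 1, 2 and 3, 55.9 and 46.8 CPM in null 1 and null 3, and 72.7 and 89.1 CPM in WT 1 and WT 2. Mutant 2 was the highest library and the other mutant lines lay below both WT lines, so the groups overlapped (log2 fold change -0.15, 95% interval -0.87 to 0.56). Both null libraries lay below WT, by -0.66 (SE 0.333, edgeR adjusted p = 0.309), and below all mutant libraries, with a mutant against null difference of 0.50 (SE 0.307, adjusted p = 0.486). Gene counts do not separate the epithelial and mesenchymal splice forms of Fgfr2. Esrp1 and Esrp2, the splicing regulators that promote the epithelial form, were therefore read beside it. Esrp2 fell in mutant lines, at 33.8, 29.8 and 19.6 CPM against 91.0 and 77.3 CPM in WT (log2 fold change -1.60, SE 0.337, edgeR adjusted p = 0.0429). Esrp1 was at 338.6, 145.0 and 183.8 CPM in mutant lines, all below the 462.0 and 344.1 CPM in WT, and was not called (adjusted p = 0.166). In null lines, Esrp2 was at 94.3 and 48.9 CPM and Esrp1 at 472.7 and 408.1 CPM, and neither was called in null against WT (0 of 2 at an unadjusted p under 0.05 and 0 by DESeq2) or in mutant against null (adjusted p = 0.272 and 0.319, 1 called lower by DESeq2). Whether the splice form of Fgfr2 differed was not tested.

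Fgfr3, a relative with roles in cartilage and surface epithelia, had the lowest mean per kilobase of the 3 FGF receptors in mutant and null lines. It was at 4.17, 1.40 and 1.70 CPM in mutant, 4.11 and 4.71 CPM in null and 2.96 and 4.47 CPM in WT lines. Mutant 2 and mutant 3 were the lowest libraries and mutant 1 lay within the WT range (log2 fold change -0.61, 95% interval -2.04 to 0.82). Within the 3 FGF receptors, levels were set per kilobase of exon (GENCODE M21, a different build from the counts). Fgfr1 then made up 62.8, 27.1 and 62.9% of the sum in mutant 1, 2 and 3, 3.65 and 70.2% in null 1 and null 3, and 0.349 and 0.754% in WT 1 and WT 2. Fgfr2 made up 34.3, 71.8 and 35.9% in mutant, 88.8 and 26.6% in null and 95.1 and 93.8% in WT libraries. Fgfr1 thus passed Fgfr2 in mutant 1, mutant 3 and null 3 and not in mutant 2, null 1 or either WT line.

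**Figure D1:**
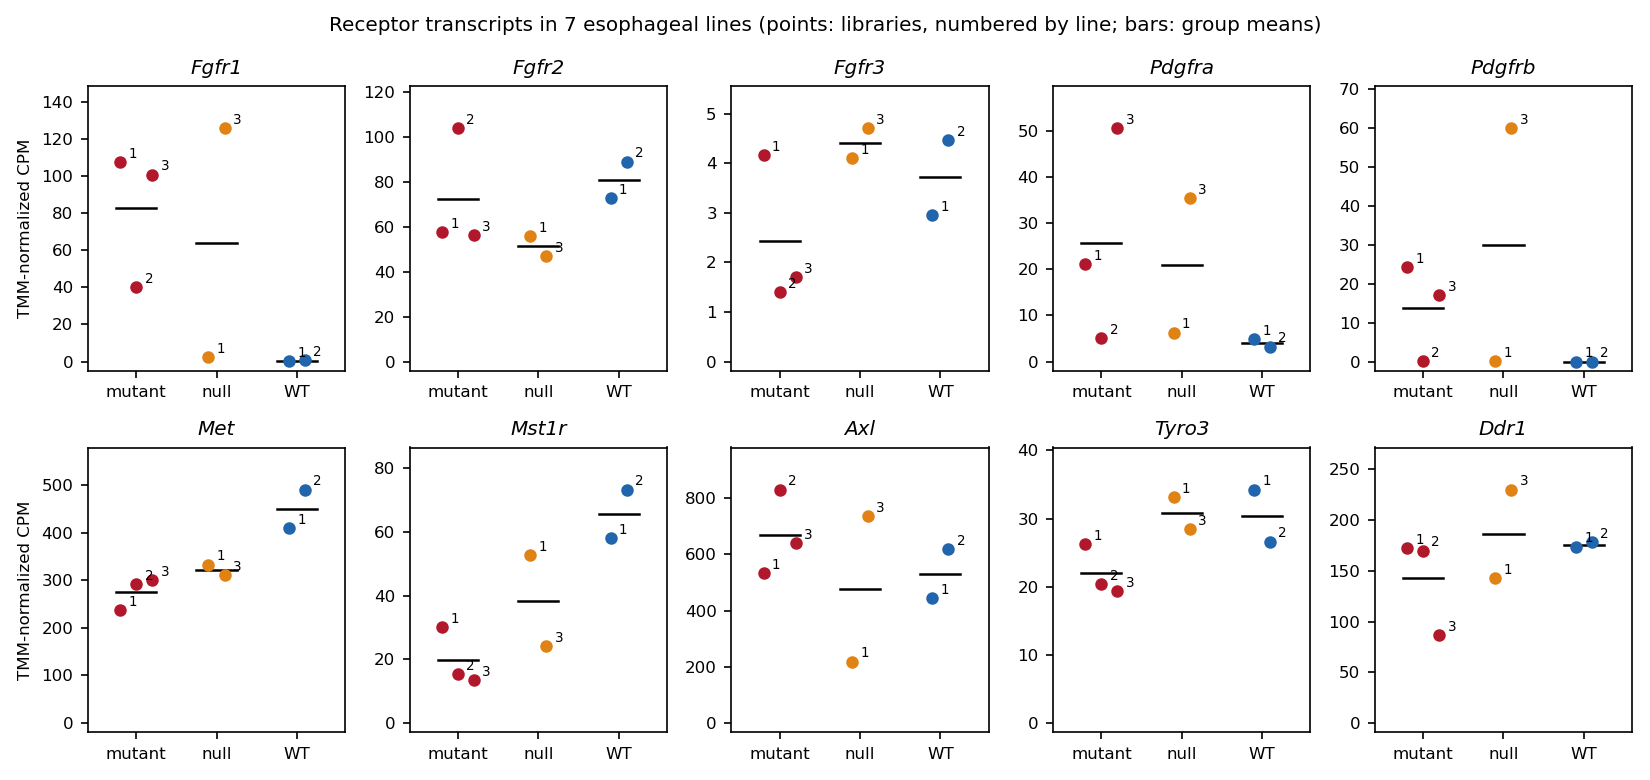
TMM-normalized CPM (linear axes) of each receptor in mutant, null and WT libraries. Points are libraries numbered by line and bars are group means (n = 3, 2 and 2). Fgfr1, Pdgfra and Pdgfrb are lowest in WT and split the mutant and null lines, whereas Met and Mst1r are highest in both WT libraries.

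The PDGF receptors, which drive growth and migration of fibroblasts and pericytes, split the lines in a common way. Pdgfra was at 21.1, 5.15 and 50.6 CPM in mutant 1, 2 and 3, at 6.27 and 35.4 CPM in null 1 and null 3, and at 4.80 and 3.25 CPM in WT 1 and WT 2. Pdgfrb was at 24.3, 0.0712 and 17.1 CPM in mutant, 0.152 and 60.0 CPM in null, and 0 CPM in both WT libraries. Both genes were high in mutant 1, mutant 3 and null 3. In mutant 2 and null 1, Pdgfra was just above WT and Pdgfrb had only 3 and 5 counts. With 0 counts in WT, Pdgfrb was at least 200.2-fold higher in mutant and at least 372-fold higher in null lines, each against a floor of 3 counts over the WT group, which covers counting error only. The bound in null lines rests on null 3, and is at least 2.12-fold without it, 834-fold without null 1, 109.9-fold without WT 1 and 262-fold without WT 2. In mutant lines it is at least 121-fold without mutant 1, 291-fold without mutant 2, 182-fold without mutant 3, 59.1-fold without WT 1 and 141-fold without WT 2. edgeR called Pdgfrb in neither comparison (adjusted p = 0.19 and 0.249). DESeq2 called it in both (adjusted p = 0.00669 in mutant against WT and 0.00985 in null against WT), and Pdgfra in mutant against WT alone (adjusted p = 0.0186, against 0.0926 in null against WT). For Pdgfra, the log2 fold change was 2.66 in mutant against WT (SE 1.12, adjusted p = 0.164), or 1.69 without mutant 3, and 2.36 in null against WT (SE 1.15, adjusted p = 0.296), or 0.63 without null 3. Mutant and null lines overlapped in both genes, at 0.30 for Pdgfra (95% interval -2.08 to 2.68) and -1.12 for Pdgfrb (95% interval -6.62 to 4.38). Without null 3 these differences were 2.03 and 6.48, and without null 1 they were -0.46 and -2.11.

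The same 3 lines had the highest summed level of fibroblast markers, though single markers did not mark them alike. The summed level of 10 such markers was 4480, 769 and 2696 CPM in mutant 1, 2 and 3, 316 and 2947 CPM in null 1 and null 3, and 134 and 288 CPM in WT 1 and WT 2. Most of it was Fn1, the matrix protein fibronectin, at 3486, 678 and 2263 CPM in mutant, 311 and 2305 CPM in null and 133 and 281 CPM in WT. Without Fn1, a sum added after the values were seen, the other 9 gave 994, 91.3 and 433 CPM in mutant, 4.99 and 642 CPM in null and 1.56 and 6.90 CPM in WT, with the same 3 lines on top. Col3a1, an interstitial collagen, was at 148, 0.214 and 183 CPM in mutant, 0.0913 and 276 CPM in null, and 0 and 1.62 CPM in WT. Postn, a matrix protein of activated fibroblasts, was at 293, 0.0475 and 0.115 CPM in mutant, 0.183 and 58.0 CPM in null and 0.136 and 0.406 CPM in WT, so mutant 3 was no higher than WT. Col1a2 was at 326, 0 and 1.51 CPM in mutant, 0.304 and 10.1 CPM in null and 0.0340 and 1.06 CPM in WT, with mutant 3 just above WT. Lum had a single count, in mutant 1, and Thy1 was at most 0.494 CPM in every library. All 8 fibroblast markers tested had a log2 fold change above 0 in mutant against WT and in null against WT. Over all genes the share above 0 was 54.4% and 53.6%. Dcn, with 2 counts over WT, passed the filter only through mutant or null lines, so its direction was nearly fixed by the filter. Of these markers edgeR called 0 in either comparison (smallest adjusted p = 0.059 and 0.136). At an unadjusted p under 0.05 there were 4 and 2 markers, beside 30.5% and 20.2% of all genes. DESeq2 called 5 and 2 markers, beside 3246 and 1634 of 18567 genes. Muscle markers were uneven: Myog, which drives skeletal muscle differentiation, was at 29.0 CPM in null 3 and at most 0.122 CPM elsewhere. The summed level of these markers ranged over 167 to 812 CPM in mutant, 29.3 and 440.5 CPM in null and 152 and 280 CPM in WT. Most of it was Acta2, at 768, 625 and 157 CPM in mutant, 28.3 and 350 CPM in null and 151 and 279 CPM in WT. Each other muscle marker was at most 0.568 CPM in WT. In bulk RNA, a few cells rich in a transcript and a low level in all cells cannot be told apart. The part of such cells in the receptor levels was not tested.

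**Figure D2:**
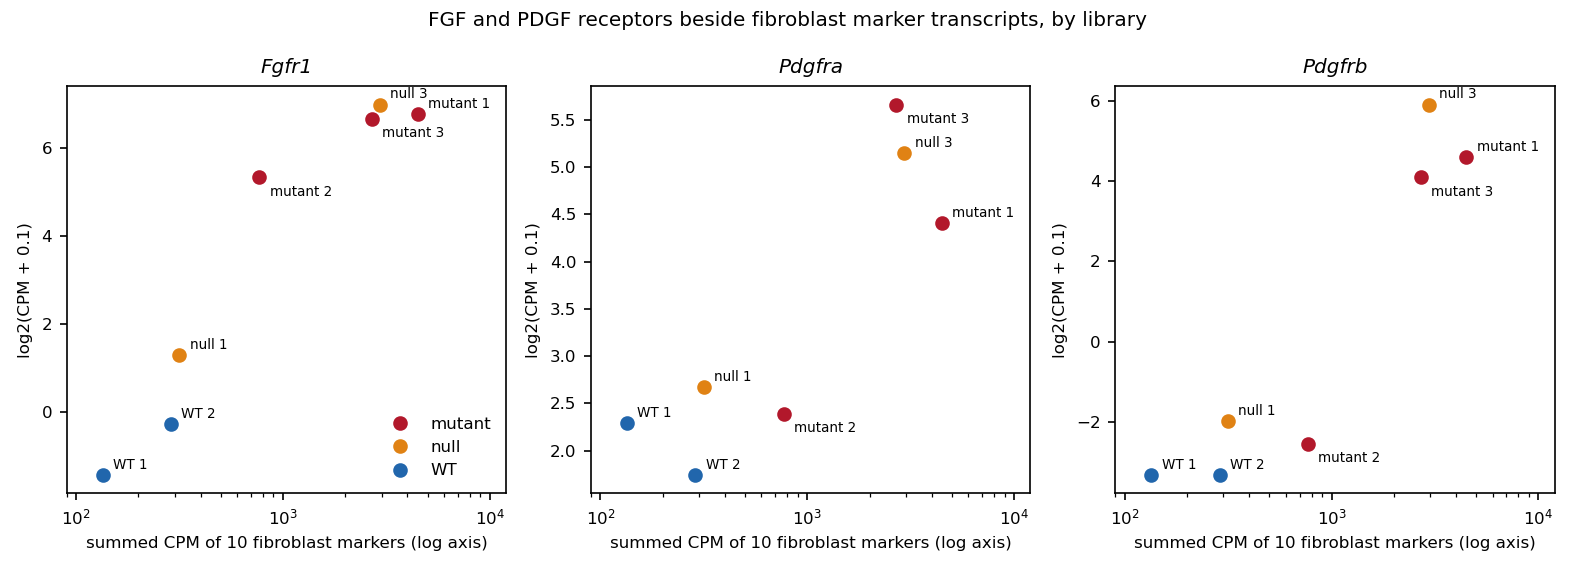
Level of Fgfr1, Pdgfra and Pdgfrb as log2(CPM + 0.1) against the summed CPM of 10 fibroblast markers on a log axis, 1 point per library. Mutant 1, mutant 3 and null 3 sit together at the upper right with marker sums of 2696 to 4480 CPM. Mutant 2 is high in Fgfr1 (40.01 CPM) and low in both PDGF receptors.

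Met, the receptor of hepatocyte growth factor that drives epithelial scattering and wound closure, was abundant in every line and highest in WT. It was at 236, 291 and 299.9 CPM in mutant 1, 2 and 3, at 332.6 and 310.3 CPM in null 1 and null 3, and at 410 and 490.2 CPM in WT 1 and WT 2. No mutant or null library reached either WT library, and both null libraries lay above the mutant ones. In mutant against WT the log2 fold change was -0.71 (SE 0.173, 95% interval -1.12 to -0.29, edgeR adjusted p = 0.0573). Like Fgfr1 and Mst1r (edgeR adjusted p = 0.0607 and 0.0628), Met lay close to the threshold. With RLE or upper-quartile factors, the newer quasi-likelihood form, a filter of 5 CPM in 2 libraries or DESeq2 it was called lower (adjusted p = 0.049, 0.0435, 0.0477, 0.0425 and 0.00122). Over all 13 alternatives its adjusted p ranged over 0.00122 to 0.315. Against WT, the null lines differed by -0.49 (SE 0.192, adjusted p = 0.231), and in mutant against null -0.22 (SE 0.174, adjusted p = 0.588).

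Mst1r had a wider range than Met, with the same lines on top. It was at 30.2, 15.4 and 13.4 CPM in mutant, 52.6 and 24.1 CPM in null 1 and null 3, and 58.2 and 73.3 CPM in WT. All mutant and null libraries lay below both WT libraries, with null 1 near WT and null 3 inside the mutant range. The log2 fold change in mutant against WT was -1.74 (SE 0.451, 95% interval -2.82 to -0.66, edgeR adjusted p = 0.0628), and without mutant 1 it was -2.21 and called (adjusted p = 0.033). It was also called with DESeq2, with no filter and with only the mutant and WT libraries in the fit (adjusted p = 0.00252, 0.0482 and 0.041), and its adjusted p over 13 alternatives ranged over 0.00252 to 0.301. The null against WT difference was -0.78 (SE 0.502, adjusted p = 0.407), -0.32 without null 3 and -1.45 without null 1. In mutant against null it was -0.96 (SE 0.450, adjusted p = 0.387), and -0.29 without null 1.

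Axl, a TAM receptor often described in migrating and drug-resistant carcinoma cells, was the most abundant receptor of the set per kilobase of exon in all 7 libraries. It was at 535, 830.5 and 641 CPM in mutant 1, 2 and 3, at 219 and 735 CPM in null 1 and null 3, and at 443 and 618 CPM in WT 1 and WT 2. Null 1 alone lay clearly below the rest, and the mutant and WT ranges overlapped (log2 fold change 0.33, 95% interval -0.84 to 1.51, edgeR adjusted p = 0.67). Null against WT was -0.15 (95% interval -1.43 to 1.12), and its sign depended on the null line left out, at 0.47 without null 1 and -1.28 without null 3. Mutant against null was 0.49 (adjusted p = 0.678), or 1.62 without null 3 and -0.13 without null 1.

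Tyro3, the second TAM receptor, varied least of the 10 from the lowest to the highest library. It was at 26.2, 20.4 and 19.4 CPM in mutant, 33.2 and 28.4 CPM in null and 34.3 and 26.6 CPM in WT lines. The mutant libraries lay below both other groups, mutant 1 by a narrow margin from WT 2. The log2 fold change was -0.47 in mutant against WT (SE 0.226, edgeR adjusted p = 0.212), -0.48 in mutant against null (SE 0.226, adjusted p = 0.386) and 0.02 in null against WT (95% interval -0.58 to 0.61). The remaining TAM receptor, Mertk, known for the uptake of dying cells, was read as the closest relative of this pair. Mertk rose in mutant lines, at 4.52, 4.51 and 8.19 CPM against 0.0340 and 0.0812 CPM in WT (edgeR adjusted p = 0.0334). WT held only 2 counts, giving a ratio of 119 (95% counting interval 32.8 to 984), or 70.2 without WT 1, and without either WT line edgeR called no gene. Null 1 and null 3 had 0.456 and 3.11 CPM of Mertk (adjusted p = 0.124 against WT).

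Ddr1, the epithelial collagen receptor, was at 173, 170.1 and 86.5 CPM in mutant 1, 2 and 3, at 143 and 230.2 CPM in null 1 and null 3, and at 174 and 178 CPM in WT. All mutant libraries lay below WT, mutant 1 and mutant 2 narrowly and mutant 3 by far more, while the null lines lay on either side. The log2 fold change was -0.30 in mutant against WT (SE 0.341, edgeR adjusted p = 0.576), and -0.06 without mutant 3. It was 0.09 in null against WT (95% interval -0.81 to 0.98) and -0.38 in mutant against null (adjusted p = 0.632). Its relative Ddr2, typical of connective tissue, was at 64.1, 1.92 and 1.95 CPM in mutant 1, 2 and 3, 0.822 and 111 CPM in null 1 and null 3, and 1.36 and 1.62 CPM in WT. Mutant 1 and null 3 alone were high, and edgeR called no comparison (adjusted p = 0.304 in mutant against WT and in null against WT).

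**Figure D3:**
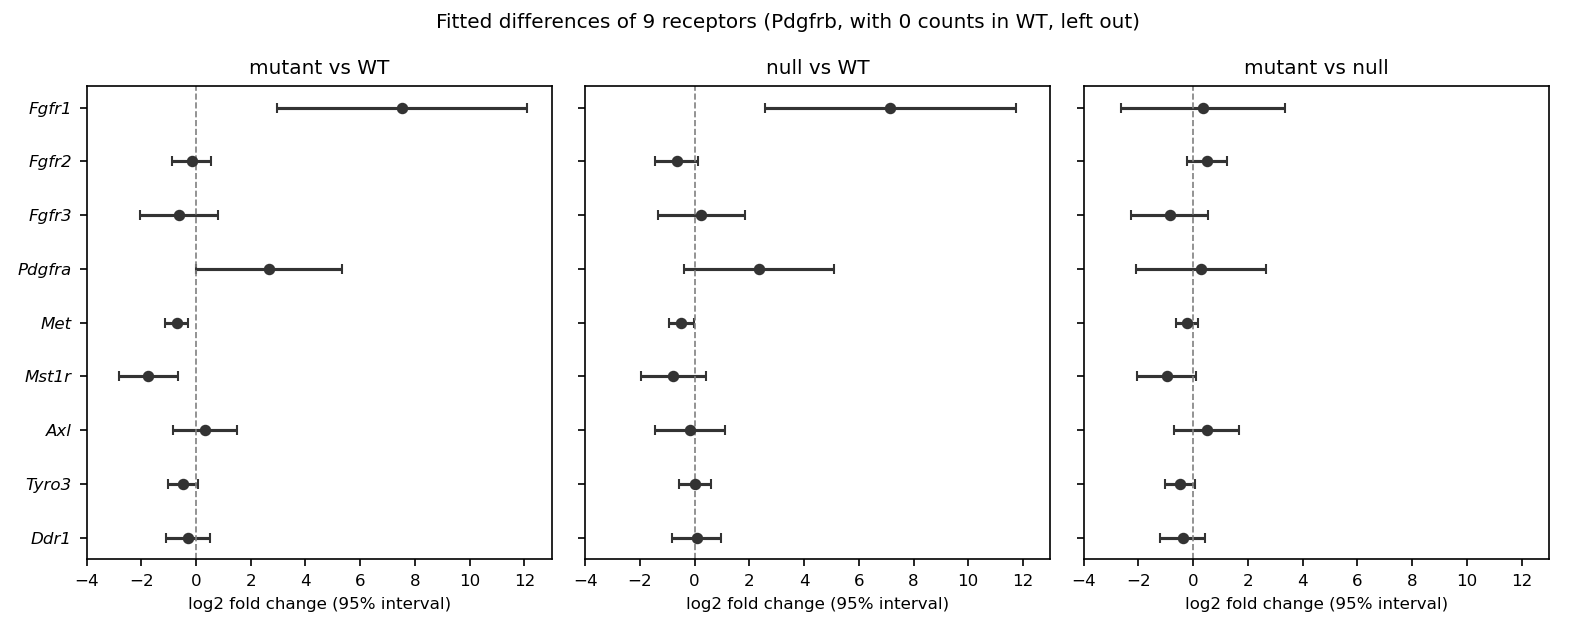
Fitted log2 fold changes with 95% intervals for 9 receptors in mutant against WT, null against WT and mutant against null. Pdgfrb is left out because WT had 0 counts. Intervals for Fgfr1 and Met lie off 0 in both comparisons with WT and that for Mst1r in mutant against WT, before adjustment over genes, and every interval of mutant against null includes 0.

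Per kilobase of exon, Axl, Met and Ddr1 held 79.7 to 88.4% of the summed receptor level in mutant, 81.3 and 81.9% in null and 85.5 and 86.7% in WT libraries. In WT, Axl averaged 124 ± 29.0, Met 66.1 ± 8.36 and Ddr1 43.0 ± 0.711 CPM per kilobase (SD, n = 2), with no overlap between neighbours. In mutant lines Axl averaged 156 ± 35.0 (SD, n = 3), and Met (40.5 ± 5.07) and Ddr1 (34.9 ± 11.97) overlapped. In null lines Axl averaged 111 ± 85.2, Met 47.2 ± 2.32 and Ddr1 45.6 ± 15.0 CPM per kilobase (SD, n = 2), and the range of Ddr1 overlapped those of both Axl and Met. Fgfr1 stood at position 4 by mean level in mutant and null lines and at position 9 in WT. The null position rests on null 3, with Fgfr1 at 24.1 CPM per kilobase. In null 1 it was at 0.449, below every other receptor of the set but Pdgfrb. The range of Fgfr1 overlapped that of Fgfr2 in mutant and null lines, and in WT it lay between Pdgfra and Pdgfrb without overlap. Below these, the ranges of neighbours from Tyro3 down to Fgfr3 overlapped in mutant lines, as did those from Fgfr1 down to Fgfr3 in null lines. In WT, Fgfr2 and Mst1r were the only neighbours that overlapped.

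The genes with the closest patterns were found over 7 libraries by the root mean square difference between centred log2 CPM profiles, among 10091 genes (10092 for Fgfr3) with a mean of at least 5 CPM. Fgfr1 was nearest to Col5a1, a fibrillar collagen chain (difference 0.47, against an SD of 3.69 for Fgfr1 itself), and Fcgrt, the neonatal Fc receptor (0.55). Pdgfrb was nearest to Megf10 (0.74) and the basement membrane protein Nid1 (0.76), and Pdgfra to the transcription factor Creb5 (0.59) and the dystrophin-complex protein Sspn (0.59). Nid1, for example, was at 45.1, 0 and 32.8 CPM in mutant, 0.335 and 78.9 CPM in null and 0.0680 and 0.0812 CPM in WT. That it splits the lines as Pdgfrb does follows from its choice by profile. Met was nearest to Zdhhc13 and Wdr83 (each 0.08), and Mst1r to Tmem132a (0.13) and Ufsp2 (0.14). Axl was nearest to Ano6 (0.19) and Sh3pxd2b (0.20), a scaffold of invasive protrusions, and Tyro3 to Ogt and Capn10 (each 0.08). Fgfr2 was nearest to Leprel4 (0.13) and Etfb (0.14), Fgfr3 to Rhou and Agbl5 (each 0.23), and Ddr1 to Ccdc163 (0.10) and Neil1 (0.12). With 7 libraries, close profiles are a description of these lines only.

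Of 32 ligand genes of these receptors, 19 passed the filter. edgeR called 0 of them in mutant against WT, null against WT and mutant against null, beside 7.42%, 0.138% and 0% of all genes. At an unadjusted p under 0.05 there were 5, 3 and 1 ligand genes, beside 30.5%, 20.2% and 14% of all genes. DESeq2 called 5, 2 and 1 ligand genes, beside 3246, 1634 and 635 of 18567 genes. The ligand genes' median log2 fold changes were 2.18, 1.52 and -0.32, beside 0.08, 0.06 and 0.02 over all genes. Fgf2, Fgf5, Fgf10 and Pdgfd had 0 counts in WT and passed the filter only through mutant or null lines. Their fold changes against WT could only be positive, so the medians against WT are partly set by the filter. The smallest p in mutant against WT were those of the collagen Col2a1, which was lower, and of Pdgfc, a ligand of PDGFRA, which was higher. Col2a1 averaged 0.305 CPM in mutant, 0.319 CPM in null and 5.99 CPM in WT. Its log2 fold change was -4.27 in mutant and -4.21 in null against WT (edgeR adjusted p = 0.0628 and 0.171). Pdgfc was at 75.5, 49.1 and 27.3 CPM in mutant, 5.75 and 24.5 CPM in null and 6.63 and 1.38 CPM in WT (log2 fold change 3.62 in mutant against WT, SE 0.957, edgeR adjusted p = 0.0653). Pdgfb, which binds both PDGF receptors, had the smallest p in mutant against null, at 6.35, 0.973 and 1.06 CPM against 19.3 and 25.7 CPM (log2 fold change -3.01, SE 0.870, adjusted p = 0.287). Gas6, the ligand of AXL and TYRO3, was second, at 85.4, 143 and 200.8 CPM in mutant and 92.1 and 68.9 CPM in null (adjusted p = 0.366). In null against WT, Pdgfd was second to Col2a1, at 0.243 and 1.29 CPM (8 and 34 counts) in null 1 and null 3 and 0 counts in WT. It was at least 9.86-fold higher in null lines against the floor of 3 counts, or 3.38-fold without null 3, 17.9-fold without null 1, 2.91-fold without WT 1 and 6.95-fold without WT 2. The following ligands were chosen after their values were seen. Fgf7, the keratinocyte growth factor, was at 96.8, 0.119 and 38.0 CPM in mutant, 0.487 and 53.4 CPM in null, and 0.0680 and 0.244 CPM in WT. Fgf10 was at 7.63, 0 and 0.551 CPM in mutant, 0.0304 and 23.5 CPM in null, and 0 in WT. The collagens Col1a1, Col1a2 and Col3a1 are in both the ligand and the fibroblast marker lists. Fgf7 and Fgf10 were highest in the 3 lines with high Pdgfrb, and the fibroblast marker sums above move with them. Hgf, the ligand of MET, was at most 0.342 CPM in any library.

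**Figure D4:**
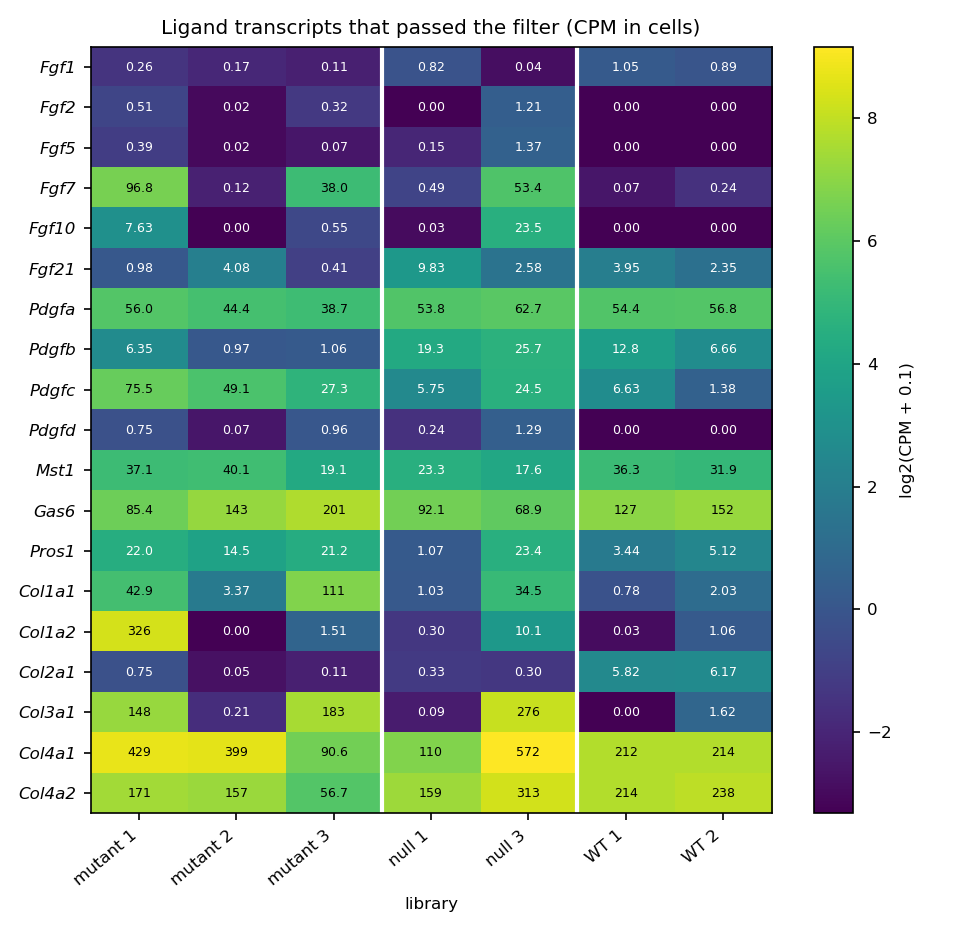
Levels of the 19 ligand genes that passed the filter in each library, coloured by log2(CPM + 0.1) with the CPM printed in each cell. Mutant 1, mutant 3 and null 3 share high Fgf7, Col1a1 and Col3a1, while Pdgfa, Mst1 and Gas6 were present in all 7 libraries.

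Among 21 coreceptors and ligand-binding partners, 19 were tested, and edgeR called 1 higher and 3 lower in mutant against WT, beside 3.3% higher and 4.13% lower over all genes. In that comparison 12 had an unadjusted p under 0.05, and DESeq2 called 5 higher and 7 lower. edgeR called 0 in the other comparisons (6 at an unadjusted p under 0.05 and 5 by DESeq2 in null against WT, 3 and 2 in mutant against null). The median log2 fold changes were -0.53, -0.02 and -0.17. Sdc1, the main epithelial heparan sulfate proteoglycan and an FGF coreceptor, fell in mutant lines, at 909, 798 and 894 CPM against 1839 and 2010 CPM in WT (log2 fold change -1.15, SE 0.164, adjusted p = 0.0229). Nrp1, which also binds growth factors, fell by 2.39 on the log2 scale (SE 0.523, adjusted p = 0.0455). Fgfbp3, a carrier of FGFs, fell by 2.17 (SE 0.488, adjusted p = 0.0478). The proteoglycan Gpc3 rose, at 4.70, 35.9 and 20.1 CPM in mutant, with 3 counts over WT, a ratio of 270.2 (95% counting interval 92.3 to 1311), or 119.7 without WT 1, 571 without WT 2 and 166 without mutant 2. In null 1 and null 3 Gpc3 was at 0.0609 and 0.228 CPM, and Gpc3 and Sdc1 had the smallest p of the list in mutant against null (both adjusted p = 0.258). The smallest p in null against WT were those of Gpc1 (1.23, adjusted p = 0.113) and Itgb4 (-1.66, adjusted p = 0.121).

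Of 22 adaptor and signalling genes tested, edgeR called 3 higher and 0 lower in mutant against WT, beside 3.3% higher and 4.13% lower over all genes. In that comparison 9 had an unadjusted p under 0.05, and DESeq2 called 6 higher and 1 lower. edgeR called 0 in the other comparisons (3 at an unadjusted p under 0.05 and 1 by DESeq2 in null against WT, 7 and 2 in mutant against null), with median log2 fold changes of 0.23, 0.23 and -0.01. Frs2, the docking protein of FGF receptors, was at 106, 179 and 161 CPM in mutant and 65.6 and 62.7 CPM in WT (log2 fold change 1.21, SE 0.264, edgeR adjusted p = 0.045). Pik3r1, a regulatory subunit of PI3K, rose by 2.37 (SE 0.532, adjusted p = 0.0474). Grb10, an imprinted adaptor that binds several receptor kinases, was at 282, 379 and 261 CPM in mutant, 6.57 and 175 CPM in null and 1.497 and 2.03 CPM in WT (log2 fold change 7.47 in mutant against WT, SE 1.51, adjusted p = 0.039). Null 1 was again the line nearest to WT. In null against WT the smallest p were those of Grb10 (5.71, adjusted p = 0.129) and Pik3ca (0.66, adjusted p = 0.166). In mutant against null they were those of Grb7 (-1.25, adjusted p = 0.272) and Pik3r1 (1.83, adjusted p = 0.287).

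The list of feedback inhibitors and their relatives had 17 genes tested. edgeR called 2 of them higher and 1 lower in mutant against WT, beside 3.3% higher and 4.13% lower over all genes. In that comparison 7 had an unadjusted p under 0.05, and DESeq2 called 6 higher and 1 lower. edgeR called 0 in the other comparisons (5 at an unadjusted p under 0.05 and 4 by DESeq2 in null against WT, 1 and 0 in mutant against null), with median log2 fold changes of 0.54, 0.23 and 0.26. Dusp4, a MAPK phosphatase induced by the pathway it limits, rose by 2.66 (SE 0.595, edgeR adjusted p = 0.0468), and its relative Dusp5 fell by 1.03 (SE 0.228, adjusted p = 0.0463). Lrig2 rose by 0.997 (SE 0.192, adjusted p = 0.0363). In null lines Dusp4 was at 31.0 and 89.0 CPM and Dusp5 at 13.8 and 15.3 CPM, against 8.50 and 6.17 CPM and 40.2 and 31.1 CPM in WT (adjusted p = 0.106 and 0.1). In mutant against null, Spred3 and Lrig3 had the smallest p (1.12 for each, adjusted p = 0.354 and 0.361). Of 17 other receptor tyrosine kinases tested outside the ErbB, Eph and insulin families, edgeR called Mertk alone in mutant against WT, beside 3.3% higher and 4.13% lower over all genes. In that comparison 4 had an unadjusted p under 0.05, and DESeq2 called 3 higher and 0 lower. edgeR called 0 in the other comparisons (6 at an unadjusted p under 0.05 and 4 by DESeq2 in null against WT, 1 and 0 in mutant against null). The median log2 fold changes were 1.56, 2.11 and -0.76, beside 0.08, 0.06 and 0.02 over all genes. Musk had 0 counts in WT, and Kit, Ntrk2 and Mertk had 3, 3 and 2 over WT. These genes passed the filter only through mutant or null lines, so the medians against WT are partly set by the filter. Styk1 was second to Mertk in null against WT (-2.65, adjusted p = 0.136), and Ltk and Styk1 led in mutant against null (-4.73 and 1.35, adjusted p = 0.299 and 0.384). Fgfr4, the remaining FGF receptor, had 0 counts in WT and at most 0.759 CPM in any library, in null 3.

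**Figure D5:**
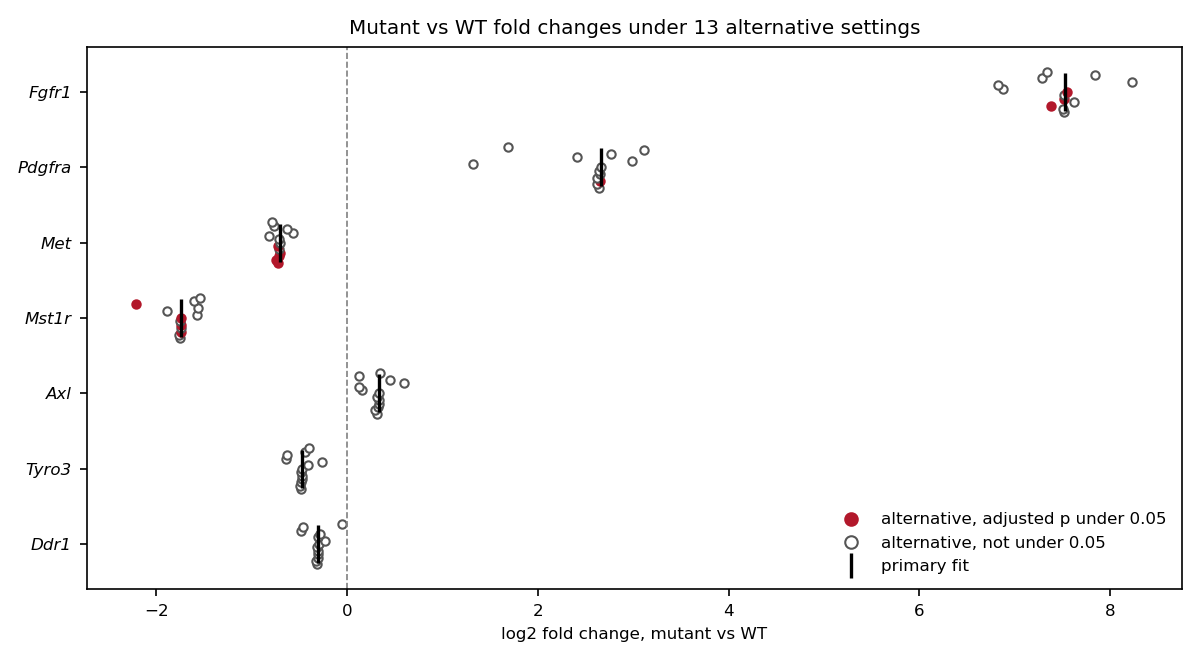
Log2 fold changes in mutant against WT for 7 receptors under 13 alternative settings (circles, filled where the adjusted p was under 0.05) and in the primary fit (vertical bars). Met stayed between -0.82 and -0.57, Mst1r between -2.21 and -1.54 and Fgfr1 between 6.83 and 8.23, and each was called under some settings only.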

How the data were processed

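RNA was extracted from 7 cell lines and made into poly(A) libraries with a stranded kit, as the labels' protocols say. The authors deposited raw counts per gene, 1 column per line, under 24047 names. Reads had been aligned with STAR 2.5.1b to mm9, per the submitters' processing notes. Which counter, strand setting and annotation were used is not given in the sources used here. Overlapping antisense genes therefore cannot be told apart from a receptor. The 92 spike-in names held 0 counts and were left out, and 27 date-like names stayed in the fit unnamed.

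All 7 libraries entered one edgeR 4.0.16 fit in R 4.3.3 (quasi-likelihood F test, legacy form, TMM, default filter by group), and p-values were adjusted by Benjamini-Hochberg over 13768 genes (threshold 0.05). Standard errors were obtained by dividing each fold change by the square root of F, and the 95% intervals use the fit's degrees of freedom. Alternatives were DESeq2 1.42.0, other scalings and filters, only the groups compared, a replicate block, and each library left out. Per-kilobase levels used GENCODE M21 exon lengths. The fit was also run on simulated counts with planted changes. The share of these that it called is not given here, so a receptor that was not called may still differ. Libraries of 1 group differed by more than sampling noise, with a chi-square of 53.0 to 239.9 for each degree of freedom.

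The members, lists and rules were chosen with earlier results of these data known. Named genes were all receptors, up to 6 called genes per list and comparison or else the 2 with the smallest p, the relatives Fgfr4, Mertk and Ddr2, the 2 closest patterns per receptor, and cell type markers.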

Additional observations from a re-analysis of the deposited data

How the results depend on the processing

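In mutant against WT, 1022 genes were called, 3246 with DESeq2, and 0 to 1420 with 1 library left out (0 without WT 1 or WT 2, 37 without mutant 2, 6 without mutant 3). In null against WT, 19 genes were called, 1634 with DESeq2, 55 with the newer quasi-likelihood form, 77 with no filter, and 0 to 55 with 1 library left out (55 without null 1, 0 without null 3 or either WT line). In mutant against null, 0 genes were called, 635 with DESeq2, 2 with no filter, 1 each with RLE factors, upper-quartile factors, the newer form or a filter of 5 CPM in 2 libraries, and 0 to 22 with 1 library left out (22 without null 3).

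Receptors called in mutant against WT numbered 0, then 1 (Met) with RLE or upper-quartile factors, the newer form or the 5 CPM filter, 2 (Fgfr1 and Mst1r) with no filter or only the groups compared, 5 with DESeq2, and 0 to 1 with 1 library left out. In null against WT they numbered 0, then 2 with DESeq2 and 0 to 1 with 1 library left out.

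No label says that a shared number marks a shared origin, so the numbers were not taken as pairs. Of 5 same-numbered pairs, 1 (null 1 and WT 1) deviated together (r = 0.138) and the other 4 had r of -0.405 to -0.0176. In a group of 2 the deviations from the group mean mirror each other, so these values cannot decide whether the numbers are pairs. With the replicate block, 0 genes were called in each comparison, and Pdgfrb in mutant against null was at 2.31 (log2), against -1.12.

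With 1 library left out, log2 fold changes that changed sign ranged as follows. In mutant against WT, Fgfr2 ranged over -0.53 to 0.00025 (without WT 2). In null against WT, Fgfr3 ranged over -0.0165 to 0.57, Axl over -1.28 to 0.47, Tyro3 over -0.16 to 0.21 and Ddr1 over -0.30 to 0.38. In mutant against null, Fgfr1 ranged over -0.60 to 5.15, Pdgfra over -0.67 to 2.03, Pdgfrb over -2.11 to 6.48, Axl over -0.13 to 1.62 and Ddr1 over -0.68 to 0.0032. None of these was called by edgeR, and the cause was not tested. With 1 library left in a group, it is assumed to vary like the others. Fgfr3 did not pass the 5 CPM filter. WT 2 is the shallowest library, and Fgfr1 there rests on 9 counts.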
